A study of Homo sapiens with 20 samples.

Results

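The copper transporters and chaperones were listed as 10 genes whose proteins bring copper into the cell, hand it on and pump it out: SLC31A1, SLC31A2, ATOX1, CCS, ATP7A, ATP7B, SCO1, SCO2, COX11 and COX17. Each gene was represented by its transcript cluster (the probes that an array combines into 1 value), taken from clusters annotated with a single gene symbol. Of the 10 listed genes, 9 were measured in this way, out of 18417 genes in all. COX17 was not, because both of its 2 clusters carry the symbols of POPDC2 and COX17 together, so no value is given for it. Chromosomes were 9 for SLC31A1 and SLC31A2, 5 for ATOX1, 11 for CCS, X for ATP7A, 13 for ATP7B, 17 for SCO1 and COX11, and 22 for SCO2.

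MDA-MB-231, an established line of basal-type human breast cancer cells, was treated with 36 µM cisplatin (Cis), with 10 µM of the copper chelator ammonium tetrathiomolybdate (TM) or with both drugs (Cis/TM), and RNA was measured on Affymetrix Human Gene 1.0 ST arrays. Each drug or pair of drugs was given for 12 h and for 24 h, with 3 arrays per group other than TM 12 h, which had 2, and with 3 Control arrays. No time is labelled for Control. Its 3 arrays served both at 12 h and at 24 h, and the comparisons with Control share them. The study's methods describe vehicle at both times, whereas its design text calls the controls untreated. Cells were treated in triplicate wells and no source calls the wells separate cultures, so the spread behind the p-values may be technical. RNA came from whole wells, in which fewer cells of a kind and less RNA per cell cannot be told apart.

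In the cell line check, VIM, CD44 and SPARC, which are high in mesenchymal breast cancer cells, had median log2 values of 11.22, 11.53 and 9.34 over the 20 arrays. ESR1, PGR and CDH1, the genes of the oestrogen and progesterone receptors and of E-cadherin, had medians of 4.01, 3.57 and 3.74. EGFR, also listed as present, had a median of 8.12. ERBB2, also listed as low, was not low, with a median of 6.00 and a mean above that of 53.5% of all genes. Array medians lay between 5.87 and 5.94 in Cis 12 h, the highest of the groups, and between 5.71 and 5.77 in Control. Genes with a higher mean level had higher log2 fold changes against Control (Spearman's rho 0.23 to 0.50 across genes, which are not independent replicates). With each array centred on its median, the median log2 fold change of all genes in Cis 12 h was −0.158, against −0.006 as deposited, and 39.7% of the called genes were upregulated, against 57.8% as deposited. On the second principal component Cis 12 h A stood at 35.2, against 2.42 and 8.24 for the other Cis 12 h arrays, and TM 24 h A at 19.1, against −2.64 and −7.74 for the other TM 24 h arrays.

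Copper enters mammalian cells mainly as Cu+ through CTR1, the product of SLC31A1, and is carried in the cytosol by small chaperones that each serve a client. ATOX1 delivers it to the copper pumps ATP7A and ATP7B, which load enzymes of the secretory pathway and export the surplus. CCS delivers it to the superoxide dismutase SOD1, and COX17 passes it to SCO1, SCO2 and COX11, which build the copper centres of cytochrome c oxidase in mitochondria. Several of these proteins also bind or move platinum drugs, and TM forms stable complexes with copper and with copper-bound ATOX1.

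Of the 9 genes, ATP7A, ATOX1, CCS and SCO1 changed at 12 h in both Cis and Cis/TM under every alternative processing that was run. Their promoter sequences are given for that reason, as the 250 bases before the annotated start (RefSeq, GRCh38.p14, 5′ to 3′ on the gene's strand). The windows are chrX:77910443-77910692 (+) for ATP7A, chr5:151758632-151758881 (−) for ATOX1, chr11:66592935-66593184 (+) for CCS and chr17:10697534-10697783 (−) for SCO1. Capitals mark matches, on either strand, to the GC box GGGCGG, to the metal response cores TGCACNC and TGCGCNC or to the antioxidant response core TGACNNNGC.
ATP7A: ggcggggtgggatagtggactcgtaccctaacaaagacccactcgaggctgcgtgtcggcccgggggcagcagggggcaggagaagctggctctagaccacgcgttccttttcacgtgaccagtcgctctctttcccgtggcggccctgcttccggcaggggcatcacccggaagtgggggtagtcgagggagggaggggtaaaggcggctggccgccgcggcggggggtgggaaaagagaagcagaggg
ATOX1: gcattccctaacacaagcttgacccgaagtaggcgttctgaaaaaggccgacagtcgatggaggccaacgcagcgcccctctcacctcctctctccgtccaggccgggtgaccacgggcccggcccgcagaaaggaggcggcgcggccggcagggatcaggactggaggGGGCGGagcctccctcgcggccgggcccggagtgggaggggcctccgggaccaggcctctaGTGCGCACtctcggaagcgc
CCS: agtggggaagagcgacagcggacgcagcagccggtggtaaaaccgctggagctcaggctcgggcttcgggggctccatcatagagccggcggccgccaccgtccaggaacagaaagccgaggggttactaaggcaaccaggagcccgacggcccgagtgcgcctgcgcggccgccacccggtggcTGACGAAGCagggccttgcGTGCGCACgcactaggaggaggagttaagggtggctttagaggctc
SCO1: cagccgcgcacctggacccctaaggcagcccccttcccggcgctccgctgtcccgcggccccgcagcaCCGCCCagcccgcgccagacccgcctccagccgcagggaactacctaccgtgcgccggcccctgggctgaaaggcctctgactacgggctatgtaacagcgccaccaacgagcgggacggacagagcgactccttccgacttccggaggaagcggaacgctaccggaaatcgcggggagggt
The window of ATP7A, the gene that fell, held no match to any of the 4 motifs. Those of ATOX1 and SCO1 held 1 GC box each, a motif found in 42.6% of all 35116 promoter windows of this length. ATOX1 and CCS shared the palindrome GTGCGCAC, in which TGCGCNC matches on both strands, and which 0.53% of all windows held, while TGCGCNC alone was found in 16.8%. CCS also held 1 match to TGACNNNGC, found in 10.9% of all windows, and TGCACNC, found in 9.87%, matched in none of the 4. These are matches of letters and not measured binding sites. GTGCGCAC was not one of the 4 motifs, and its share over all windows is no test of the sharing by ATOX1 and CCS. Windows were found for 7 of the 10 symbols. SLC31A1 had 3 GC boxes and no other match. ATP7B and COX17 had several windows each. Window 2 of ATP7B, a gene called in no comparison, held 3 GC boxes and 2 matches to TGCGCNC. Windows 1 and 2 of COX17 held 1 match to TGCGCNC each, and window 2 also held 4 GC boxes and 1 match to TGACNNNGC.

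Calls of up- and downregulated genes came from a limma model of all 20 arrays and needed both an adjusted p under 0.05 and a change over 1.5-fold. In Cis 12 h 5 of the 9 genes were upregulated and 1 was downregulated, where 14.8% of all genes were upregulated and 10.8% downregulated. Cis/TM 12 h gave 4 upregulated and 1 downregulated, against 15.2% and 8.55% of all genes. TM 12 h gave 1 and 0, against 8.99% and 3.11%. By 24 h the counts were 1 and 0 in Cis (11.5% and 4.9% of all genes), 1 and 0 in TM (5.16% and 2.55%) and 0 and 0 in Cis/TM (4.54% and 2.48%), where 3 of the 9 had an unadjusted p under 0.05. The median log2 fold change of the 9 genes was 0.70 in Cis 12 h and 0.56 in Cis/TM 12 h, whereas over all genes it was −0.01 and −0.05. For the 9 genes it was 0.22 in TM 12 h, while the 24 h medians were 0.22 for Cis, −0.09 for TM and 0.06 for Cis/TM. Under each of the 3 other scalings 3 of the 9 were upregulated and 1 was downregulated in Cis 12 h and in Cis/TM 12 h. Cis 24 h gave 1 and 2 with arrays centred on their medians, and 0 and 1 under quantile and cyclic loess normalization. TM 12 h gave 1 and 1 under quantile and cyclic loess normalization, and TM 24 h gave 0 and 0 under all 3. The share of upregulated genes among all called genes also moved with the scaling. It was 74.3% in TM 12 h as deposited (59.1% to 62.1% under the others), 64% in Cis/TM 12 h (49% to 54.3%), 70.1% in Cis 24 h (54% to 56%), 66.9% in TM 24 h (48.2% to 53.1%) and 64.7% in Cis/TM 24 h (53.9% to 58.2%).

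**Figure D1:**
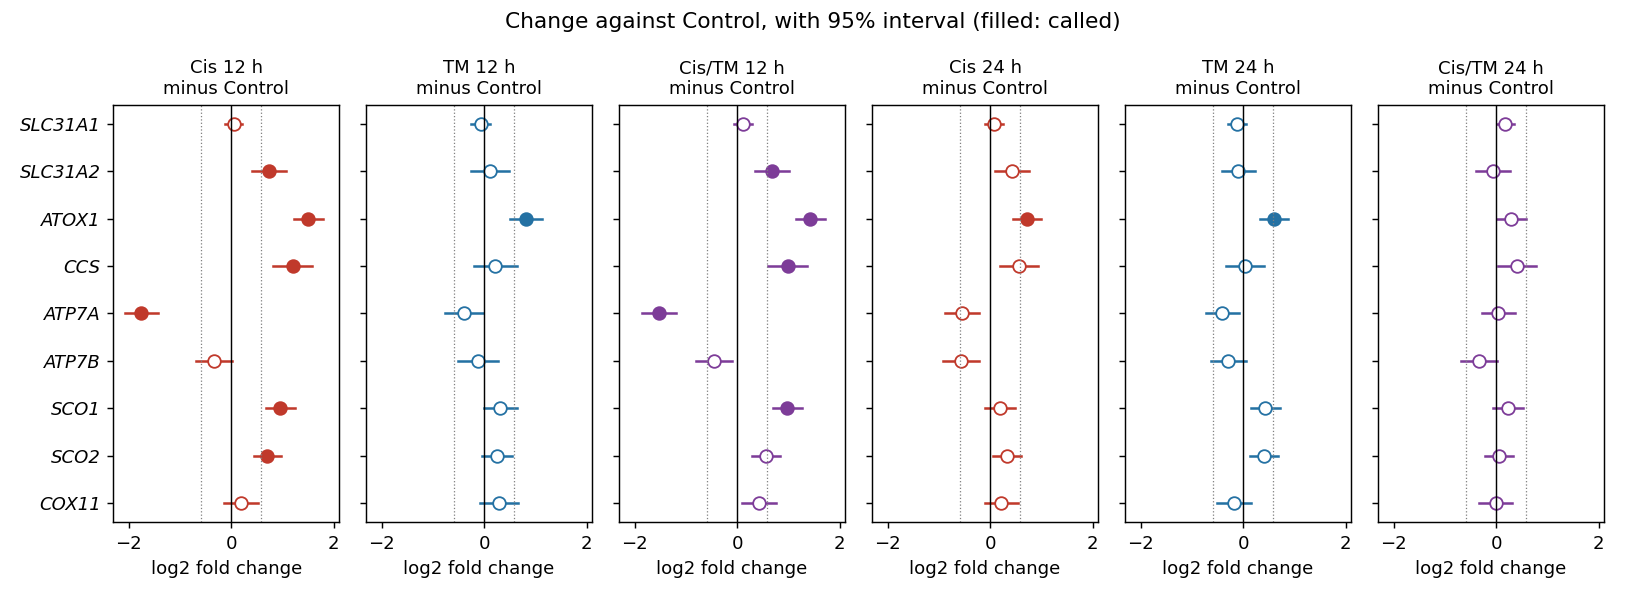
Log2 fold change (x axis) of the 9 measured genes (rows, ordered from uptake to mitochondria) in each treatment minus Control, with its 95% interval as a line. Filled points were called, open points were not, and dotted lines mark a 1.5-fold change. ATP7A was the one gene called lower, at −1.75 in Cis 12 h and −1.52 in Cis/TM 12 h, and no point is filled for Cis/TM 24 h.

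Of the uptake genes, SLC31A1 was called in none of the 15 comparisons. At 12 h the Cis arrays had log2 values of 11.02, 11.07 and 11.01, the TM arrays 10.91 and 10.93, and the Cis/TM arrays 11.11, 11.13 and 11.05. At 24 h they were 11.09, 11.07 and 11.02 in Cis, 10.83, 10.86 and 10.90 in TM, and 11.23, 11.09 and 11.19 in Cis/TM, against 11.08, 10.998 and 10.89 in Control. Cis/TM 24 h was the one group whose arrays all lay above the Control arrays, and the other 5 groups overlapped them. The log2 fold changes against Control ran from −0.13 in TM 24 h to 0.18 in Cis/TM 24 h (95% interval 0.01 to 0.35, adjusted p = 0.127). Between the treatments, Cis/TM 24 h lay above TM 24 h by 0.31 (SE 0.08, adjusted p = 0.0146), a 1.24-fold difference in which no Cis/TM array overlapped a TM array. That difference was under the fold minimum.

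SLC31A2, which encodes the related protein CTR2 of late endosomes and lysosomes, was upregulated at 12 h wherever cisplatin was present. The log2 values of the Cis 12 h arrays were 7.34, 7.03 and 7.29 and those of the Cis/TM 12 h arrays 7.28, 7.07 and 7.14, against 6.09, 6.99 and 6.38 in Control. The treated arrays all exceeded the Control arrays, although Control B, at 6.99, lay close to the lowest Cis 12 h array, at 7.03. The log2 fold change was 0.73 in Cis 12 h (SE 0.16, adjusted p = 7.08e-04) and 0.68 in Cis/TM 12 h (adjusted p = 0.00147). In TM 12 h the values were 6.60 and 6.60, within the Control range. Both calls were lost by the fold minimum without Control A (0.53 and 0.48) and under all 3 other scalings of the arrays (0.45 to 0.58 in Cis 12 h, 0.40 to 0.57 in Cis/TM 12 h). At 24 h the log2 fold change was 0.43 in Cis (adjusted p = 0.0394, 1.34-fold, and 0.68 and called without Control B), −0.09 in TM and −0.06 in Cis/TM. The 24 h values were 6.91, 6.93 and 6.90 in Cis and 6.48, 6.39 and 6.40 in Cis/TM, which did not overlap, but their difference of −0.49 missed the threshold (adjusted p = 0.0856).

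ATOX1, the chaperone that serves the copper pumps, was upregulated in 5 of the 6 comparisons with Control. At 12 h the Cis arrays read 9.69, 9.65 and 9.49 on the log2 scale, the TM arrays 8.87 and 8.96, and the Cis/TM arrays 9.68, 9.42 and 9.48. At 24 h the values were 8.92, 8.85 and 8.68 in Cis, 8.74, 8.65 and 8.73 in TM, and 8.56, 8.29 and 8.35 in Cis/TM, against 8.35, 8.23 and 7.73 in Control. Only Cis/TM 24 h overlapped Control, and Control C was the lowest of the 20 arrays. The largest change was in Cis 12 h, with a log2 fold change of 1.51 (SE 0.13, adjusted p = 2.02e-08, 2.84-fold), followed by Cis/TM 12 h with 1.43 (SE 0.13, adjusted p = 5.38e-08, 2.69-fold). TM 12 h gave 0.81 (SE 0.15, adjusted p = 5.25e-04, 1.76-fold). These 3 calls held under every alternative.

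At 24 h ATOX1 was called in both single-drug groups. The log2 fold change was 0.71 in Cis 24 h (SE 0.13, adjusted p = 3.30e-04) and 0.60 in TM 24 h (SE 0.13, adjusted p = 0.0031, 1.52-fold). In Cis/TM 24 h it was 0.30 (95% interval 0.02 to 0.57, adjusted p = 0.124). Without Control C the values were 0.53 in Cis 24 h and 0.42 in TM 24 h, and neither was called. Quantile and cyclic loess normalization also put both under the fold minimum (0.52 to 0.53 in Cis 24 h, 0.48 to 0.51 in TM 24 h). In the ranking of the group means, from Cis 12 h at the top to Control at the bottom, the neighbours that did not overlap were Cis/TM 12 h with TM 12 h and TM 24 h with Cis/TM 24 h.

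CCS, the chaperone of the antioxidant enzyme SOD1, was upregulated at 12 h with cisplatin. Log2 values of 6.71, 6.57 and 6.60 were measured in Cis 12 h, with 6.63, 6.39 and 6.21 in Cis/TM 12 h, against 5.76, 5.56 and 4.97 in Control. All 6 of these treated arrays lay above all Control arrays. The log2 fold change was 1.20 in Cis 12 h (SE 0.18, adjusted p = 1.54e-05, 2.29-fold) and 0.98 in Cis/TM 12 h (SE 0.18, adjusted p = 1.55e-04, 1.98-fold), and both calls held under every alternative. TM alone gave 0.22 at 12 h and 0.04 at 24 h. In Cis 24 h the value was 0.56 (adjusted p = 0.0190, 1.48-fold), which passed the fold minimum without Control A (0.73), Control B (0.63) or Cis 24 h C (0.65). Like ATOX1, CCS had its lowest Control value on array C.

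**Figure D2:**
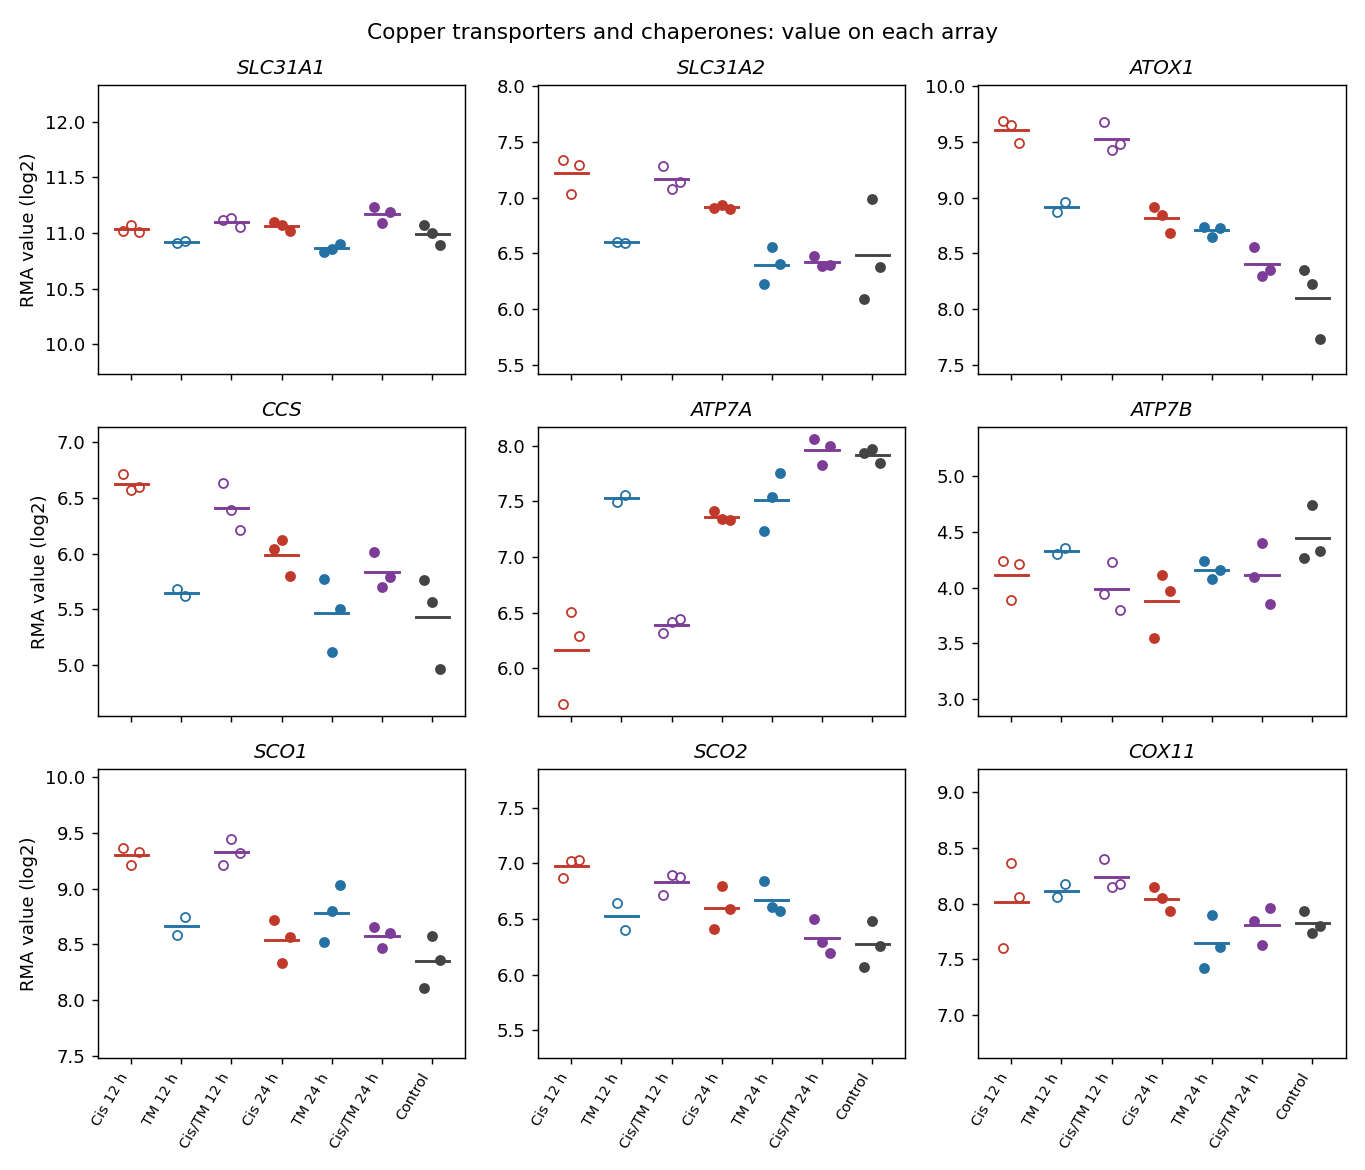
RMA values (log2, y axis) of the 9 measured genes on each array, by group (x axis), with the group mean as a line. Open points are 12 h arrays and filled points 24 h and Control arrays, and every panel spans the same number of log2 units. In ATP7A the 6 arrays of Cis 12 h and Cis/TM 12 h, at 5.68 to 6.51, lie below all others, and in ATOX1 the same 6, at 9.42 to 9.69, lie above all others.

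Among the export pumps, ATP7A fell at 12 h in the presence of cisplatin, whereas its Cis/TM 24 h values overlapped those of Control. The Cis 12 h arrays had log2 values of 5.68, 6.51 and 6.29, and the Cis/TM 12 h arrays 6.32, 6.41 and 6.44, against 7.93, 7.97 and 7.84 in Control. The highest of these 6 treated arrays was below the lowest Control array. The log2 fold change was −1.75 in Cis 12 h (SE 0.16, adjusted p = 2.42e-08, 3.37-fold lower) and −1.52 in Cis/TM 12 h (SE 0.16, adjusted p = 1.86e-07, 2.88-fold lower). Cis 12 h A, the array that stood apart on the second principal component, was also the lowest in ATP7A. With Cis 12 h A and TM 24 h A both left out, the log2 fold change in Cis 12 h was −1.51. TM 12 h, at 7.50 and 7.55, lay below Control by 0.39 on the log2 scale, and this was not called (adjusted p = 0.110), although it was under quantile normalization (−0.61) and cyclic loess normalization (−0.60).

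At 24 h the log2 values of ATP7A were 7.41, 7.34 and 7.33 in Cis, 7.24, 7.54 and 7.75 in TM, and 8.06, 7.82 and 7.99 in Cis/TM. The Cis 24 h and TM 24 h arrays lay below all Control arrays, whereas Cis/TM 24 h overlapped Control. The log2 fold change was −0.56 in Cis 24 h (SE 0.16, adjusted p = 0.00898), a 1.47-fold difference just under the fold minimum. It was called without Control C (−0.59), with arrays centred on their medians (−0.65) and under quantile (−0.78) and cyclic loess (−0.82) normalization. TM 24 h gave −0.41 (adjusted p = 0.0718) and Cis/TM 24 h 0.04 (95% interval −0.29 to 0.37, adjusted p = 0.880). By group mean, ATP7A was highest in Cis/TM 24 h and Control, which overlapped, then in TM 12 h, TM 24 h and Cis 24 h, and lowest in Cis/TM 12 h and Cis 12 h, which overlapped.

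ATP7B, the pump altered in Wilson disease, had values of 3.55 to 4.74 over the 20 arrays and was called in no comparison. This range takes in the medians of ESR1 and PGR (4.01 and 3.57). ATP7B was among the 25% of genes with the lowest mean, which the low-value filter left out, so its differences are those of a signal near the floor. It lay below Control by 0.57 on the log2 scale in Cis 24 h (SE 0.17, adjusted p = 0.0112, 1.48-fold) and by 0.46 in Cis/TM 12 h (adjusted p = 0.0310, 1.37-fold). The Cis 24 h value was past the fold minimum without any 1 of Cis 24 h B (−0.69), Cis 24 h C (−0.61), Control A (−0.66) or Control C (−0.63), and with arrays centred on their medians (−0.66). In TM the differences were −0.12 at 12 h and −0.29 at 24 h.

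Of the mitochondrial chaperones, SCO1, which delivers copper to subunit II of cytochrome c oxidase, was upregulated at 12 h in Cis and Cis/TM. In Cis 12 h its log2 values were 9.37, 9.22 and 9.33, and Cis/TM 12 h gave 9.21, 9.45 and 9.32, against 8.11, 8.57 and 8.36 in Control. Both treated groups lay wholly above Control. The log2 fold change was 0.96 in Cis 12 h (SE 0.14, adjusted p = 9.18e-06, 1.94-fold) and 0.98 in Cis/TM 12 h (SE 0.14, adjusted p = 8.26e-06, 1.97-fold). At 24 h it was 0.19 in Cis, 0.43 in TM (adjusted p = 0.0290, under the fold minimum) and 0.23 in Cis/TM.

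SCO2, a paralogue of SCO1 with a role at the same copper site, had smaller differences. Its log2 values were 6.87, 7.02 and 7.03 in Cis 12 h, 6.72, 6.90 and 6.88 in Cis/TM 12 h, and 6.84, 6.61 and 6.57 in TM 24 h, against 6.07, 6.48 and 6.26 in Control. These 3 groups did not overlap Control. Cis 12 h was called, with a log2 fold change of 0.70 (SE 0.13, adjusted p = 1.36e-04, 1.63-fold), but not with arrays centred on their medians (0.55) or under quantile (0.52) and cyclic loess (0.42) normalization. Cis/TM 12 h gave 0.56 (adjusted p = 0.00133, 1.47-fold), which was called without Cis/TM 12 h A (0.61) or Control B (0.66). TM 24 h gave 0.40 (adjusted p = 0.0301). COX11, which serves the copper site of subunit I, was called nowhere, with log2 fold changes against Control from −0.18 in TM 24 h to 0.42 in Cis/TM 12 h (adjusted p = 0.0350, 1.34-fold).

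With TM added to cisplatin, none of the 9 genes was called at 12 h. Cis/TM 12 h against Cis 12 h had no member with an unadjusted p under 0.05, and 0% of all genes were called by limma, of which 1732 had an unadjusted p under 0.05. The difference in ATP7A was 0.23 (95% interval −0.10 to 0.56), that in ATOX1 −0.08 (−0.36 to 0.20) and that in CCS −0.21 (−0.59 to 0.16), all on the log2 scale. With Cis 12 h A and TM 24 h A both left out, the ATP7A difference was −0.01. At 24 h ATP7A was higher in Cis/TM than in Cis by 0.60 (SE 0.16, adjusted p = 0.0397, 1.52-fold), 1 of the 9 genes where 1.5% of all genes were called. The 3 Cis/TM 24 h arrays all exceeded the 3 Cis 24 h arrays. This call was lost without any 1 of these 6 arrays (0.55 to 0.67, adjusted p from 0.0787 to 0.148) and with arrays centred on their medians (0.66, adjusted p = 0.0514). ATOX1 and SLC31A2 differed in the other direction, by −0.42 (adjusted p = 0.0849) and −0.49 (adjusted p = 0.0856), and were not called.

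Addition of cisplatin to TM changed 4 of the 9 genes at 12 h, where 13.6% of all genes were called. ATP7A was lower in Cis/TM 12 h than in TM 12 h by 1.14 on the log2 scale (SE 0.18, adjusted p = 6.57e-05), under every alternative. ATOX1 was higher by 0.61 (SE 0.15, adjusted p = 0.00434), CCS by 0.76 (SE 0.20, adjusted p = 0.00779) and SCO1 by 0.66 (SE 0.15, adjusted p = 0.00297). Each of these 3 calls was lost without 1 of the 2 TM arrays. Without TM 12 h A the differences in ATOX1 (0.57, adjusted p = 0.0580) and SCO1 (0.58, adjusted p = 0.0569) were not called, and without TM 12 h B that in CCS was not (0.73, adjusted p = 0.0719). ATOX1 was not called without Cis/TM 12 h A (0.54) or with arrays centred on their medians (0.56) either, and SLC31A2, at 0.57 (adjusted p = 0.0233), was called without Cis/TM 12 h B (0.61). At 24 h none of the 9 was called, and 4 had an unadjusted p under 0.05, where 6.28% of all genes were called.

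The 24 h groups were also set against the 12 h groups of the same treatment. In Cis 24 h against Cis 12 h 4 of the 9 genes were called, where 10.6% of all genes were. ATP7A was higher at 24 h by 1.20 (SE 0.16, adjusted p = 1.42e-05), whereas ATOX1 was lower (−0.79, SE 0.13, adjusted p = 1.70e-04), as were SCO1 (−0.77, SE 0.14, adjusted p = 3.23e-04) and CCS (−0.64, SE 0.18, adjusted p = 0.0133). The CCS difference was not called without Cis 12 h A (−0.59) or Cis 24 h C (−0.54), with arrays centred on their medians (−0.57) or under cyclic loess normalization (−0.54). SLC31A2 and SCO2, which were also called in Cis 12 h against Control, differed by −0.30 (adjusted p = 0.200) and −0.37 (adjusted p = 0.0411, under the fold minimum). In Cis/TM 24 h against Cis/TM 12 h 4 of the 9 were called, where 13.7% of all genes were. ATP7A was higher by 1.57 (SE 0.16, adjusted p = 6.37e-07), whereas ATOX1 was lower (−1.13, SE 0.13, adjusted p = 3.50e-06), as were SCO1 (−0.75, adjusted p = 3.02e-04) and SLC31A2 (−0.75, adjusted p = 0.00116). CCS, at −0.58 (adjusted p = 0.0200), was past the fold minimum without Cis/TM 12 h B (−0.59), Cis/TM 12 h C (−0.68) or Cis/TM 24 h A (−0.67), and SCO2, at −0.50 (adjusted p = 0.00515), without Cis/TM 24 h A (−0.59). Under TM alone none of the 9 was called between the times by limma, 1 had an unadjusted p under 0.05, and 0.00543% of all genes were called.

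The combination was also set against the sum of the single drugs, as the log2 change of Cis/TM less those of Cis and of TM, each from Control, where 0 means that the log2 changes add up. At 12 h ATOX1 was called, where 10.3% of all genes were. Its log2 fold changes of 1.51 in Cis and 0.81 in TM add to 2.32, and Cis/TM reached 1.43, a departure of −0.89 (SE 0.20, adjusted p = 0.00612). ATP7A departed by 0.62 at 12 h (SE 0.24, adjusted p = 0.0937), which was called without Cis 12 h B (0.79, adjusted p = 0.0285) and under quantile (0.88) and cyclic loess (0.78) normalization. With Cis 12 h A and TM 24 h A both left out, this ATP7A departure was 0.38 (adjusted p = 0.0918) and was not called. At 24 h 3 of the 9 genes were called, where 16.5% of all genes were. For ATP7A, −0.56 in Cis and −0.41 in TM add to −0.96, and Cis/TM was at 0.04, a departure of 1.01 (SE 0.22, adjusted p = 0.00286).

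ATOX1 again fell short of the sum at 24 h, with 0.71 in Cis and 0.60 in TM adding to 1.32 and Cis/TM at 0.30, a departure of −1.02 (SE 0.19, adjusted p = 6.86e-04). The 3 departures of ATOX1 and of ATP7A at 24 h held under every alternative. SCO2 departed by −0.68 at 24 h (SE 0.18, adjusted p = 0.0107), which was not called without Cis 24 h B (−0.58) or Control A (−0.58) or under the 3 other scalings (−0.43 to −0.54). SLC31A2, at −0.40 (adjusted p = 0.217), was called without Control B (−0.65). ATP7B, with its low signal, departed by 0.53 (adjusted p = 0.118) and was called with arrays centred on their medians (0.67, adjusted p = 0.0353).

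**Figure D3:**
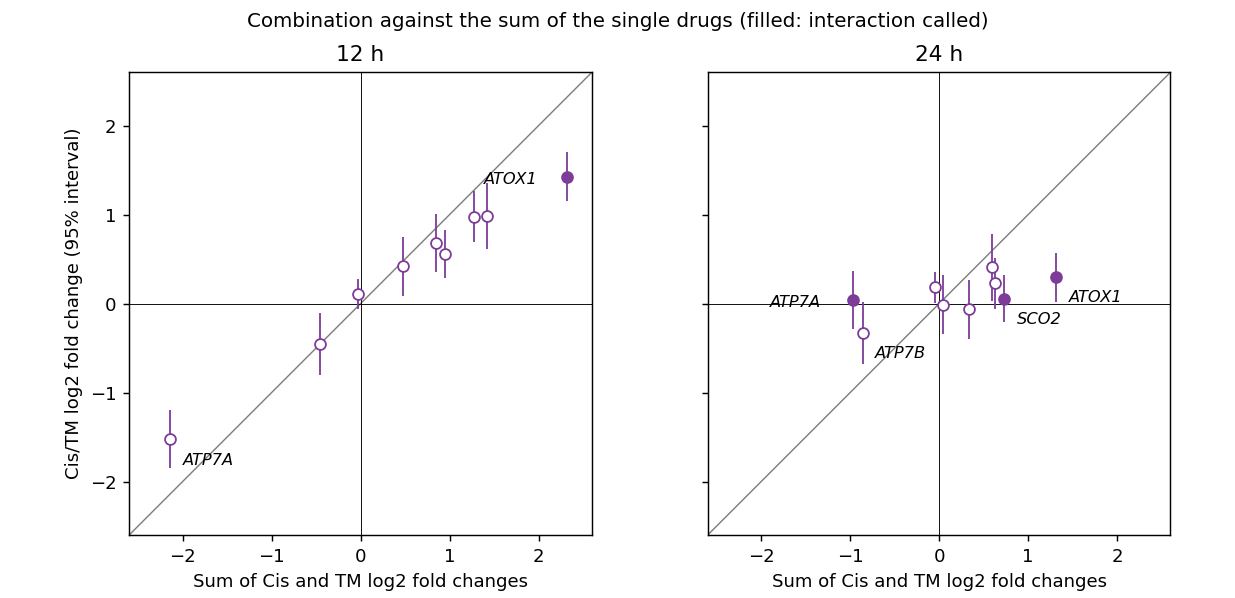
Log2 fold change of Cis/TM against Control (y axis, with its 95% interval) against the sum of the log2 fold changes of Cis and TM (x axis, drawn without an interval) for the 9 genes at 12 h and 24 h, with the line of equality in grey. Filled points were called in the test of the departure from the sum. At 24 h the Cis/TM values of ATP7A, ATOX1 and SCO2 are 0.04, 0.30 and 0.06, while their sums are −0.96, 1.32 and 0.73.

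The genes whose values over the 20 arrays were most like those of ATP7A were LRRC49 (Pearson's r = 0.989), XRN1 (0.983) and ANO6 (0.980). For SLC31A1 they were BFSP1 (0.888), ATPAF1 (0.883) and DSC2 (0.879). These r values describe arrays that share groups and scaling. LRRC49 lay below Control by 1.86 on the log2 scale in Cis 12 h and was 0.06 above it in Cis/TM 24 h, beside −1.75 and 0.04 for ATP7A.

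The products of copper delivery were covered by lists of genes around the transporters and chaperones. Of 10 nuclear-encoded subunits of cytochrome c oxidase, the mitochondrial copper enzyme, 7 were upregulated in Cis 12 h and 6 in Cis/TM 12 h. Over all genes 14.8% and 15.2% were. Cis 24 h gave 4 and TM 12 h gave 2, where 11.5% and 8.99% of all genes were upregulated. In TM 24 h and Cis/TM 24 h limma called 0, where 6 and 4 had an unadjusted p under 0.05 and 5.16% and 4.54% of all genes were upregulated. None of these calls was downward. The median log2 fold change of the list was 0.79 in Cis 12 h and 0.76 in Cis/TM 12 h, whereas over all genes it was −0.01 and −0.05. COX7A2 rose by 1.13 in Cis 12 h (SE 0.09, adjusted p = 9.14e-09) and by 1.06 in Cis/TM 12 h (adjusted p = 2.82e-08), and COX6B1 by 0.92 in TM 12 h (adjusted p = 5.21e-05). At 24 h the subunit COX8A rose by 1.01 in Cis (adjusted p = 1.33e-05). The departure from the sum of the single drugs was called, and negative, for 4 subunits at 12 h and 3 at 24 h (2 or 3, and 2, under the other scalings). It was called and negative for 6.87% of all genes at 12 h and 11.4% at 24 h. Under the 3 other scalings Cis 12 h gave 6 or 7 upregulated subunits, Cis/TM 12 h gave 5 and Cis 24 h gave 2.

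Of 22 listed assembly factors of that enzyme, 18 were measured. In Cis 12 h 7 were upregulated and 1 was downregulated, and in Cis/TM 12 h 8 were upregulated and none downregulated. TM 12 h gave 3 upregulated, Cis 24 h and TM 24 h 2 each, and Cis/TM 24 h 0 by limma, where 4 had an unadjusted p under 0.05. Median log2 fold changes were 0.40 in Cis 12 h and 0.36 in Cis/TM 12 h. CHCHD7, a protein of the mitochondrial intermembrane space, rose by 1.03 in Cis 12 h (SE 0.09, adjusted p = 1.29e-08). COA7, an assembly factor of the same compartment, rose by 1.44 in Cis/TM 12 h (SE 0.14, adjusted p = 1.36e-07), by 1.10 in TM 12 h and by 0.98 in TM 24 h. In Cis 12 h 38.9% of the factors were upregulated, against 14.8% of all genes, with 44.4% against 15.2% in Cis/TM 12 h and 16.7% against 8.99% in TM 12 h. In Cis 24 h and in TM 24 h 11.1% were upregulated, against 11.5% and 5.16% of all genes. In Cis/TM 24 h 4.54% of all genes were. The 1 downregulated factor in Cis 12 h was 5.56% of the list, against 10.8% of all genes. Under the other scalings 4 were upregulated in Cis 12 h, 4 or 5 in Cis/TM 12 h, 1 or 2 in TM 12 h, 1 in TM 24 h and none in Cis 24 h, and in TM 12 h 1 was downregulated under quantile and cyclic loess normalization.

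**Figure D4:**
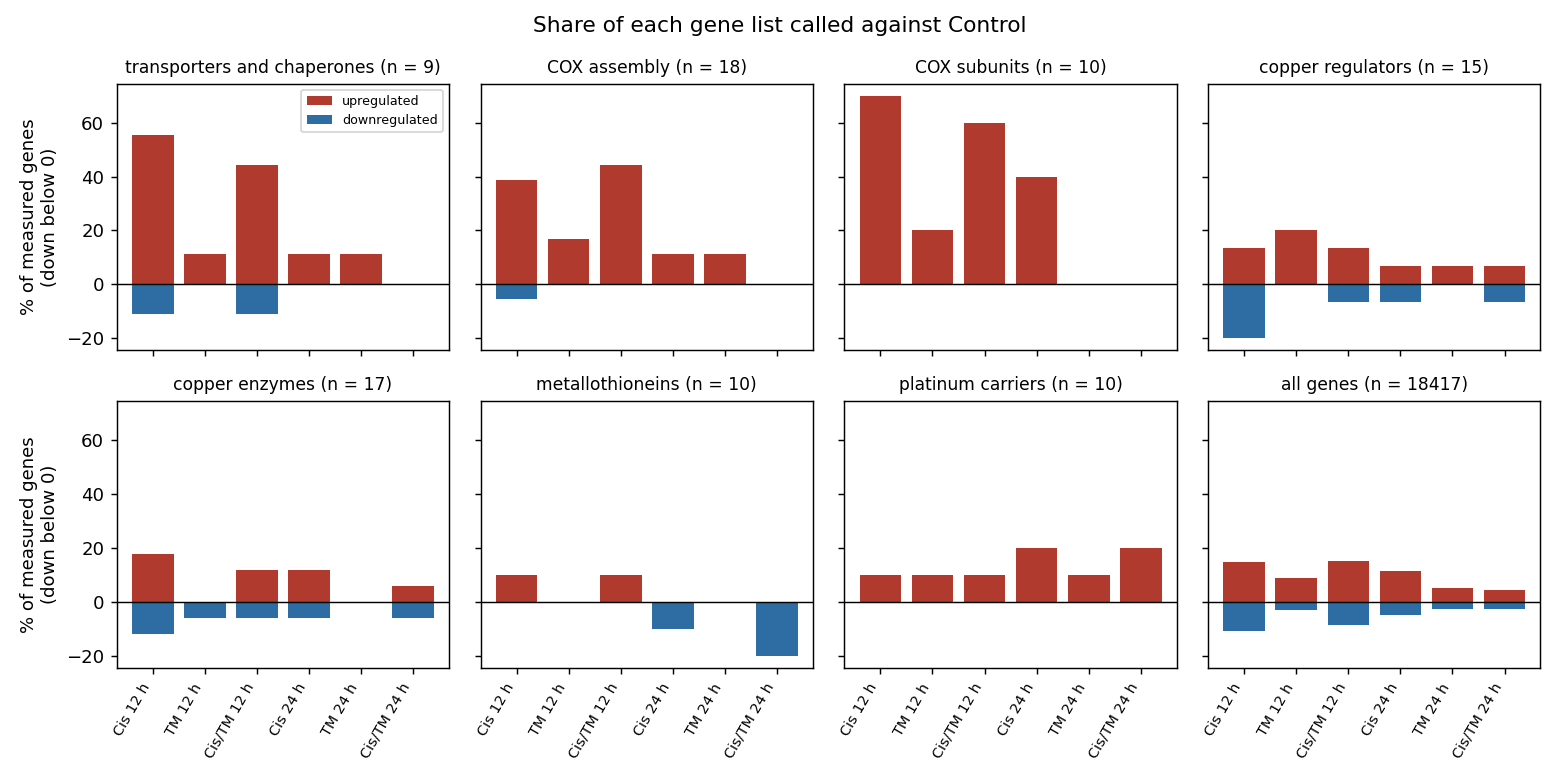
Percent of measured genes (y axis) called upregulated (red, above 0) or downregulated (blue, below 0) in each treatment against Control (x axis), for the 9 transporters and chaperones, 6 lists of related genes and all genes, with the number measured as n. In Cis 12 h 55.6% of the 9 genes and 70.0% of the oxidase subunits were upregulated, against 14.8% of all genes.

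Among 15 regulators of copper handling and metal reductases, all measured, Cis 12 h gave 2 upregulated and 3 downregulated, TM 12 h gave 3 and 0, and Cis/TM 12 h gave 2 and 1. By 24 h 1 gene was upregulated with each treatment, and 1 was downregulated with Cis and with Cis/TM. Of all genes, 10.8% were downregulated in Cis 12 h and 8.55% in Cis/TM 12 h. In TM 12 h 8.99% of all genes were upregulated and 3.11% downregulated. The 24 h shares of all genes were 11.5% upregulated and 4.9% downregulated in Cis. They were 5.16% and 2.55% in TM, and 4.54% and 2.48% in Cis/TM. The 13.3% upregulated in Cis 12 h and in Cis/TM 12 h stood near the 14.8% and 15.2% of all genes. Under the other scalings TM 12 h gave 1 or 2 upregulated, with 1 downregulated under quantile and cyclic loess normalization. Each of the 3 gave 1 more downregulated gene in Cis 12 h, Cis/TM 12 h and Cis 24 h, and under quantile and cyclic loess normalization TM 24 h had 1 downregulated and Cis/TM 24 h had 0 upregulated. COMMD1, whose product takes part in the trafficking of ATP7A and ATP7B, was lower than Control in all 4 cisplatin groups. At 12 h it fell by 0.91 on the log2 scale in Cis and by 1.0 in Cis/TM, and at 24 h by 1.5 in Cis (SE 0.12, adjusted p = 4.30e-08) and by 1.4 in Cis/TM (SE 0.12, adjusted p = 4.95e-07). Clusterin (CLU), a chaperone of misfolded proteins, rose by 1.58 in Cis 12 h (SE 0.10, adjusted p = 5.99e-10) and by 1.66 in Cis/TM 12 h (SE 0.10, adjusted p = 4.69e-10). MTF1, the zinc-sensing factor that drives metallothionein genes, rose at 12 h by 0.94 with Cis, 0.85 with TM and 1.09 with both, and at 24 h by 0.71 with TM. These calls of COMMD1, CLU and MTF1 held under the 3 other scalings.

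Metallothioneins bind zinc and copper in the cytosol, and 10 of 11 listed were measured. Near-identical copies share sequence, so the signal may not belong to a single copy. MT1X rose by 1.62 in Cis 12 h (SE 0.10, adjusted p = 3.03e-10) and by 1.19 in Cis/TM 12 h (adjusted p = 1.53e-08), and was the only one upregulated in these 2 treatments. This 1 of the 10 was a smaller share than the 14.8% (Cis 12 h) and 15.2% (Cis/TM 12 h) of all genes. No metallothionein was downregulated in these 2 treatments, where 10.8% and 8.55% of all genes were. At 24 h MT1E fell by 0.84 in Cis (adjusted p = 3.87e-05) and by 1.3 in Cis/TM (adjusted p = 1.10e-06), where MT1G also fell, by 0.64 (adjusted p = 4.65e-04). Over all genes 4.9% were downregulated in Cis 24 h and 2.48% in Cis/TM 24 h. Under the 3 other scalings 2 metallothioneins were downregulated in Cis 24 h, where 1 was as deposited. With TM alone limma called 0 of the 10 at either time, and 2 had an unadjusted p under 0.05 at each. Over all genes 8.99% were upregulated and 3.11% downregulated in TM 12 h, with 5.16% and 2.55% in TM 24 h.

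Of 17 copper enzymes, all measured, 3 rose and 2 fell in Cis 12 h, with 2 and 1 in both Cis/TM 12 h and Cis 24 h. In Cis/TM 24 h 1 rose and 1 fell, and with TM 1 fell at 12 h, while limma called 0 at 24 h, where 6 had an unadjusted p under 0.05. In Cis/TM 12 h and Cis 24 h 11.8% rose, against 15.2% and 11.5% of all genes. In Cis/TM 24 h 5.88% rose, against 4.54%. In Cis 12 h 11.8% fell, against 10.8% of all genes. In Cis/TM 12 h, Cis 24 h, Cis/TM 24 h and TM 12 h 5.88% fell, against 8.55%, 4.9%, 2.48% and 3.11%. With TM 8.99% of all genes rose at 12 h, and at 24 h 5.16% rose and 2.55% fell. The 17.6% upregulated in Cis 12 h stood near the 14.8% of all genes, and under each of the 3 other scalings 1 of the 17 was upregulated there and 1 or 2 were downregulated. Cis/TM 12 h had 1 upregulated under cyclic loess normalization and Cis/TM 24 h 2 under quantile normalization. Under both of these nothing was downregulated in TM 12 h or Cis/TM 24 h, and Cis 24 h had 2 downregulated with centring and under quantile normalization. AOC2, a copper amine oxidase, rose by 1.90 in Cis 12 h (SE 0.15, adjusted p = 5.79e-09), by 1.83 with both drugs at that time and by 0.91 in Cis 24 h. Of 12 listed carriers and pumps of platinum drugs other than those above, 10 were measured. In each 12 h group 1 of the 10 was upregulated, where 14.8% (Cis), 8.99% (TM) and 15.2% (Cis/TM) of all genes were. At 24 h 2 were upregulated in Cis, 1 in TM and 2 in Cis/TM, against 11.5%, 5.16% and 4.54% of all genes. No gene of this list was downregulated against Control. Its median log2 fold change lay between −0.11 in Cis 24 h and 0.24 in Cis/TM 12 h. TMEM205, a membrane protein linked to cisplatin resistance in cultured cells, was upregulated in all 6 treatments, by 2.19 in Cis 12 h (SE 0.19, adjusted p = 1.59e-08), with 1.11 for TM and 2.07 for Cis/TM at that time. At 24 h it was higher by 1.77 with Cis, 0.71 with TM (adjusted p = 0.0110) and 1.12 with Cis/TM. ABCG2, an efflux pump, rose by 0.61 in Cis 24 h (adjusted p = 0.0148) and 0.70 in Cis/TM 24 h (adjusted p = 0.0119), and the first of these was not called under the 3 other scalings (0.42 to 0.52).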

How the data were processed

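The study measured RNA from MDA-MB-231 cells on 20 Affymetrix Human Gene 1.0 ST arrays in 7 groups. The authors' deposited table held log2 values from RMA, a method that corrects background, normalizes probes and summarises them per transcript cluster, run with the affy package in R. The version of affy is not given in the sources used here. Of 33297 clusters, 19460 carried 1 symbol, 1754 several and 12083 none in the platform annotation. For a gene with several single-symbol clusters the one with the highest mean was kept, which left 18417 genes. RMA compresses small values, so a fold change of a dim gene may be understated, and the number of arrays limits the precision (median SE 0.135 log2 units).

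A model of all 7 groups was fitted with limma 3.58.1 in R 4.3.3 (13 residual and 6.09 prior degrees of freedom), with Benjamini-Hochberg adjustment over 18417 genes per comparison. A call needed an adjusted p under 0.05 and a fold over 1.5. All tests were two-sided. The script was tested on simulated data.

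The members and lists were chosen with earlier results of these data known. All 10 members were named, with up to 2 called genes of smallest p per list and comparison with Control, and the 3 genes most correlated with ATP7A and with SLC31A1. Alternatives were 3 other scalings of the arrays, other thresholds, a low-value filter, the mean of a gene's clusters, trend and robust variance, only the groups compared, a replicate block, and leaving out each array. Leaving out Cis 12 h A and TM 24 h A together was added after seeing the data. The main model did not pair arrays by replicate letter (median correlation of same-letter residuals 0.01, −0.42 to 0.61 over 57 pairs). Pairs of different letters were not compared, so these values cannot show whether some arrays were paired.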

Additional observations from a re-analysis of the deposited data

Results flagged for a closer look

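Among the 9 genes, 12 values came from a test of a difference between times, or between the combination and the sum of the single drugs, that passed the threshold. Between 24 h and 12 h in Cis these were ATP7A (1.20), ATOX1 (−0.79), CCS (−0.64) and SCO1 (−0.77), as log2 differences of 24 h minus 12 h. In Cis/TM they were ATP7A (1.57), ATOX1 (−1.13), SCO1 (−0.75) and SLC31A2 (−0.75). The Control arrays do not enter these 8 values.

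The departure of Cis/TM from the sum of Cis and TM was −0.89 for ATOX1 at 12 h. At 24 h it was 1.01 for ATP7A, −1.02 for ATOX1 and −0.68 for SCO2. All 4 of these use the same 3 Control arrays.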

How the results depend on the processing

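Of 135 values (9 genes in 15 comparisons), 31 were called, 20 of them under every alternative, and 19 of the 104 others were called under some. No called value changed sign, whereas 85 sign changes concerned values called in neither setting. Numbers of the 9 genes called that changed by over 1.5 times were as follows. Against Control, Cis 24 h gave 3 with median centring, 5 with no fold minimum and 1 to 3 leaving out each array, where 1 was called as deposited. TM 24 h gave 0 with centring, quantile, cyclic loess or only the groups compared, 3 with no fold minimum and 0 to 1 leaving out arrays, against 1. TM 12 h gave 2 under quantile and cyclic loess, against 1, and Cis/TM 12 h 8 with no fold minimum, against 5. Cis/TM 24 h against Cis 24 h gave 0 with centring and 0 to 0 leaving out each array, against 1. Cis/TM 24 h against TM 24 h gave 1, and Cis/TM 24 h against Cis/TM 12 h 7, with no fold minimum, against 0 and 4. Cis/TM 12 h against TM 12 h gave 2 to 5 leaving out each array, against 4. The departure from the sum at 12 h gave 2 under quantile, cyclic loess or the methods' unadjusted p with the fold, and 1 to 2 leaving out each array, against 1. Smaller changes were 4 in Cis 12 h under the 3 scalings, against 6, and 4 in Cis/TM 12 h, against 5. Cis 24 h against Cis 12 h gave 3 with centring or cyclic loess and 5 with no fold minimum, against 4. Cis/TM 12 h against TM 12 h gave 3 with centring and 5 with no fold minimum, against 4. The departure at 24 h gave 2 under quantile and cyclic loess, against 3. Leaving out each array gave 5 to 6 in Cis 12 h, 4 to 6 in Cis/TM 12 h, 3 to 4 for Cis 24 h against Cis 12 h, 4 to 6 for Cis/TM 24 h against Cis/TM 12 h and 2 to 4 for the departure at 24 h. With the replicate block no number of the 9 genes called changed (6 in Cis 12 h).

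Over all genes, Cis/TM 24 h against Cis 24 h called 277, with centring 179 and leaving out each array 44 to 350. The departure from the sum at 12 h called 1897, but 1039 without TM 12 h A and 1124 without TM 12 h B. Cis/TM 12 h against Cis 12 h called 0, but 1 under quantile normalization, 5 without Cis 12 h B and 52 at an unadjusted p with the fold, and TM 24 h against TM 12 h called 1, but 0 to 61. With no fold minimum 8719 genes were called in Cis 12 h against Control, where 4701 were with it. The other such pairs of counts at 12 h were 4725 and 2229 for TM and 8550 and 4375 for Cis/TM, and at 24 h they were 6801 and 3018 for Cis, 3931 and 1421 for TM, and 3579 and 1293 for Cis/TM. Between treatments or times they were 692 and 277 for Cis/TM 24 h against Cis 24 h, 4059 and 2504 for Cis/TM 12 h against TM 12 h, 2481 and 1156 for Cis/TM 24 h against TM 24 h, 4074 and 1956 for Cis 24 h against 12 h, and 5021 and 2532 for Cis/TM 24 h against 12 h. Signal and array number, with 2 arrays in TM 12 h, limit the small differences. Every comparison with Control rests on 3 arrays whose time is not labelled.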
